A study of Mus musculus with 2 samples.

Results

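The genes described here were 7 laminin chains (*Lama1*, *Lama2*, *Lama4*, *Lama5*, *Lamb1*, *Lamb2* and *Lamc1*), both nidogens (*Nid1* and *Nid2*) and perlecan (*Hspg2*). They were taken by symbol from the gene list of the count tables, which held 32285 genes, and all 10 were found. Single-cell RNA-seq had been performed on E17.5 mouse eye cups, in 1 pooled library from *Myrf* humWT/humWT mice and another from *Myrf* humdG/humdG mice. In both alleles a human last *MYRF* exon with its 3′UTR stood in place of the mouse exon, and humdG also carried the C-terminal frameshift variant found in nanophthalmos families, so the control was a humanized allele and not the mouse allele. The libraries are called humWT and humdG below. The labels gave 3 pooled eye cups per library with cornea, lens and optic nerve taken off, while the methods of the study gave mice with the cornea left on. The protocol text in the labels also spoke of conditional *Myrf* mice, so its details may not be those of these libraries. With 1 library per genotype there was no replicate, no test between genotypes was possible, and the 95% intervals given here cover counting error only.

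Basement membranes are thin sheets of matrix under epithelia and around vessels, nerves and muscle. Laminins are trimers of an alpha, a beta and a gamma chain that polymerize into the sheet and bind integrins and dystroglycan on cells, nidogens bridge laminin and collagen IV, and perlecan is a heparan sulfate proteoglycan that binds both networks. In the eye such sheets lie in Bruch's membrane beneath the retinal pigment epithelium (RPE), at the inner limiting membrane of the retina, around vessels and beneath the surface epithelium.

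The deposited tables held 17421 humWT barcodes with 129135207 unique molecular identifiers (UMIs, each a captured transcript counted once) and 19565 humdG barcodes with 114319529 UMIs. After filtering, 16167 and 18173 cells remained, with a median of 3785 and 2624 UMIs, and 86 barcodes occurred in both libraries. These are more cells than the study states for its libraries, so the shares of cells per class may not be those of the study. Cells were clustered without the 10 genes, and clusters were named from marker genes. This gave 18 named units, which are called classes here although mesenchyme-like cells were kept as 3 separate clusters, and they held 65.7% of humWT and 41.6% of humdG cells. The largest unnamed cluster, of low depth, held 3424 humWT and 7675 humdG cells. A level is the sum of a gene's UMIs over the cells of a class divided by all UMIs of that class and scaled to counts per 1000000 (CPM). Levels were compared mainly for the same gene across classes or libraries. Where different genes stand side by side within a class, their CPM carry no correction for differences between genes. *Myrf* itself was highest in RPE-like cells, at 283 CPM in humWT and 196 CPM in humdG. This does not check the labels, because counts per gene do not show which of these alleles they came from.

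Each of the 10 genes had its own distribution over the classes. The highest class was retinal progenitor-like for *Lama1*, RPE-like for *Nid2*, surface epithelium-like for *Lama5*, blood vessel-like for *Lamc1* and *Hspg2*, and a mesenchyme-like cluster for *Lama2*, *Lamb1*, *Lamb2* and *Nid1*. It was the same class in both libraries for 8 of 10 genes. The exceptions were *Lama4*, highest in Schwann and neural crest glia-like cells of humWT and in blood vessel-like cells of humdG, and *Lamb2*, which moved between mesenchyme-like clusters.

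**Figure D1:**
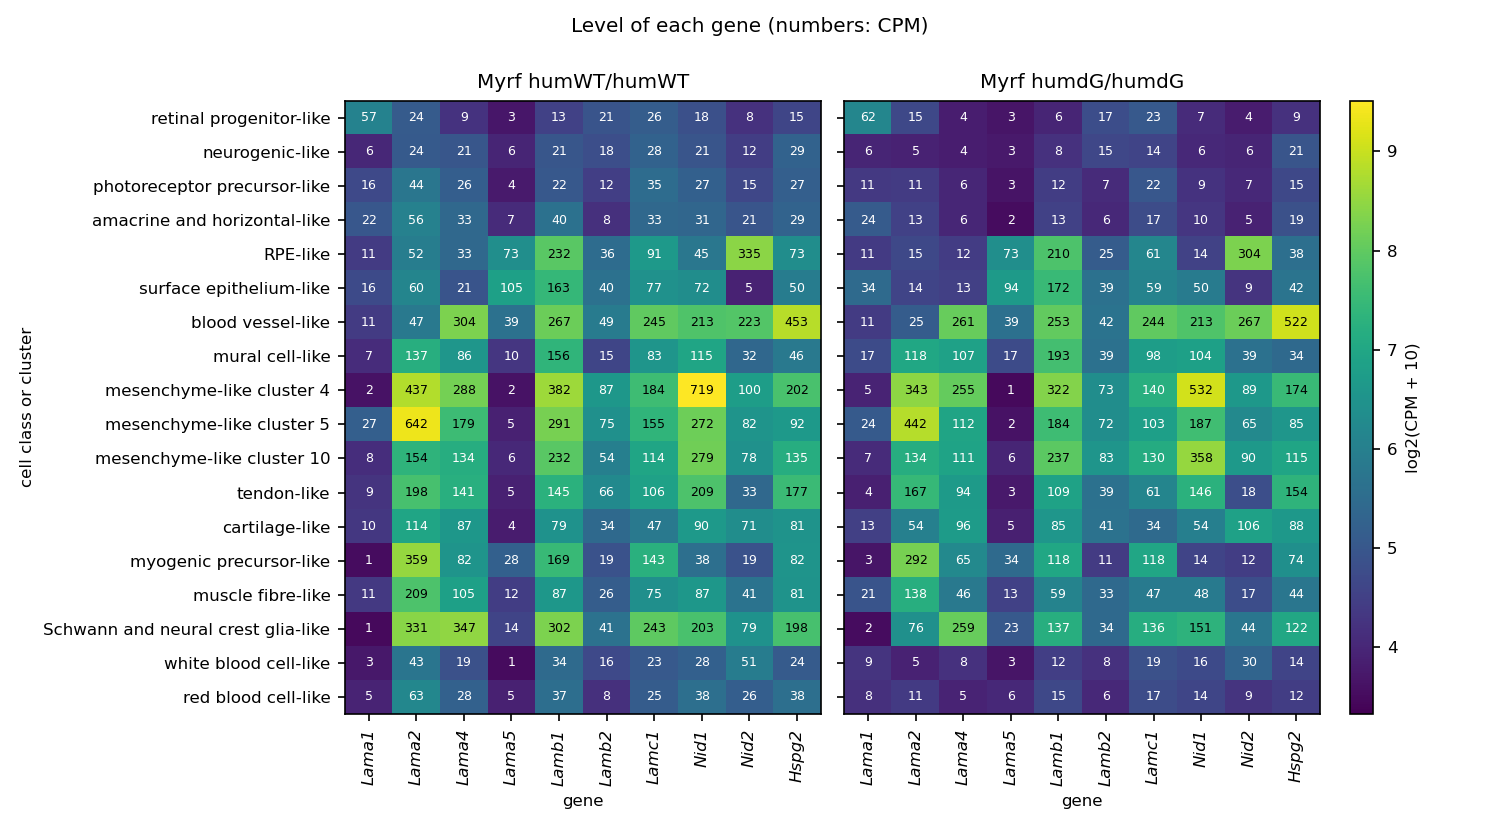
Heat map of the level of each gene (columns) in 18 named cell classes or clusters (rows), for both libraries. Colour is log2(CPM + 10) and the printed numbers are CPM, so that *Nid2* reaches 335 and 304 CPM in RPE-like cells and *Hspg2* 453 and 522 CPM in blood vessel-like cells.

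By the GENCODE M21 annotation of GRCm38, the 10 genes lie on 9 chromosomes. *Lama2* and *Lama4* both lie on chromosome 10, at chr10:26980036-27619758 on the minus strand and chr10:38965515-39110188 on the plus strand. *Lama2* spans 640 kb with 65 exons in its reference transcript. *Lamb2*, at chr9:108479736-108490530, spans 10.8 kb with 33 exons, the same number of exons as *Lamb1* at chr12:31265234-31329644. *Nid1* lies at chr13:13437551-13512269 and *Nid2* at chr14:19751265-19811787, both on the plus strand. *Nid2* overlaps the antisense gene *Rtraf*, which had 24581 UMIs in humWT and 24309 in humdG, and whether the counting used the strand was not given in the sources used here. *Lama1* lies at chr17:67697259-67822647, *Lama5* at chr2:180176373-180225859, *Lamc1* at chr1:153218922-153332786 and *Hspg2* at chr4:137468769-137570630.

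Promoter sequences (RefSeq, GRCm38.p6; 250 bases before to 50 after the gene start) were found for 6 of 10 genes, which were *Lama2*, *Lama5*, *Lamb1*, *Lamb2*, *Nid1* and *Hspg2*. The 3 printed here belong to a chain highest in epithelia (*Lama5*, chr2:180225810-180226109, minus strand), a chain present in epithelia, vessels and mesenchyme (*Lamb1*, chr12:31265043-31265342, plus strand) and the nidogen highest in mesenchyme (*Nid1*, chr13:13437352-13437651, plus strand). Capitals mark matches, on either strand, to 5 sets of letters. These were CTGGCAC, known for MYRF, the E-boxes CATGTG and CACGTG, known for MITF, GGATTA, known for OTX2, and GGGCGG, known for SP and KLF factors.
Lama5: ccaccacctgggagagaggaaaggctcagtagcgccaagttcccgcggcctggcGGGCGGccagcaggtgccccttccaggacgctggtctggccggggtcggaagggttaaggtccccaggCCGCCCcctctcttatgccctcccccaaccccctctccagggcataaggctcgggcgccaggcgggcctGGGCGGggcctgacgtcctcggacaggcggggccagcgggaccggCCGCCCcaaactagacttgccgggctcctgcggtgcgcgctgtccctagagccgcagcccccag
Lamb1: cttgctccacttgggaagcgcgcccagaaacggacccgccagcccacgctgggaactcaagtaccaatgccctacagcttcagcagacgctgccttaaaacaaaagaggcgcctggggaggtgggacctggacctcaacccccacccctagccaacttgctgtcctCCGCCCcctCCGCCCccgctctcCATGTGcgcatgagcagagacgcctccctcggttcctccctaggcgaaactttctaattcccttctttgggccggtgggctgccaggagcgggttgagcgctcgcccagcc
Nid1: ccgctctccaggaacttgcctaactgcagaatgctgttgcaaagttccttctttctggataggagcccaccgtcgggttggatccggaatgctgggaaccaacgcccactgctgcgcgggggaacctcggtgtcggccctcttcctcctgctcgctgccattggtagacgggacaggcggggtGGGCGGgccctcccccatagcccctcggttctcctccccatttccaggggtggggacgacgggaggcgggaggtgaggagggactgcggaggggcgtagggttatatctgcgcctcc
The promoter of *Lama5* held 4 matches to GGGCGG, that of *Lamb1* held 2 beside a single match to the MITF E-box CATGTG, and that of *Nid1* held 1 match to GGGCGG. *Hspg2* held 5 and *Lama2* 1 match to GGGCGG, and *Lamb2* held only 1 match to GGATTA. The *Lama2* window, chr10:27616893-27617192, lay inside the span of the gene given above and did not reach the gene start of that annotation. The MYRF letters and the other MITF E-box were in none of these 6 windows. Of 32851 promoters of the same length, 35.7% held the SP and KLF letters, 14.2% the E-box CATGTG, 7.15% the other E-box, 7.06% the OTX2 letters and 5.01% the MYRF letters. A match describes letters in a window and not a bound site.

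Among the alpha chains, which set the trimer's receptor binding, *Lama1* was highest in retinal progenitor-like cells among the named classes, although an unnamed cluster reached 71.2 and 66.5 CPM and another 87.3 CPM in humdG. Its level there was 56.7 CPM (51.6 to 62.2; 449 UMIs) in humWT and 61.6 CPM (57.5 to 66.0; 825 UMIs) in humdG. The next class was mesenchyme-like cluster 5 in humWT (26.8 CPM) and surface epithelium-like in humdG (34.4 CPM), in both cases with an interval below that of the progenitors. A *Lama1* UMI was found in 43.3% and 47.2% of retinal progenitor-like cells, while red blood cell-like cells, a class in which the gene is not known to be made, had one in 2.42% and 3.24%. The median depths behind these shares were 12057 and 11581 UMIs for the progenitors and 4148 and 4191 UMIs for the red blood cell-like cells. Amacrine and horizontal-like cells had 22.0 and 24.2 CPM of *Lama1*, whereas RPE-like cells had 11.1 and 10.7 CPM. When clusters were drawn at a resolution of 1.0, the highest class of *Lama1* became mural cell-like in both libraries.

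*Lama2*, the alpha chain of muscle and peripheral nerve basement membranes, was highest in mesenchyme-like cluster 5, whose leading genes were *Spp1*, *Mgp* and *Rgs5*. It reached 642 CPM (629 to 655) in humWT and 442 CPM (429 to 455) in humdG, with a UMI in 97.5% and 96.8% of the cells whereas red blood cell-like cells had one in 20.2% and 4.45%. The cells of cluster 5 had median depths of 16325 and 17984 UMIs. Mesenchyme-like cluster 4 (*Pi16*, *Tnxb*) followed at 437 and 343 CPM, and myogenic precursor-like cells at 359 and 292 CPM. Cluster 5 was named from 9 raised mesenchyme markers, but its 10 leading genes held the mural cell marker *Rgs5* and no mesenchyme marker, so its name is uncertain. Schwann and neural crest glia-like cells had 331 CPM over 52 cells in humWT and 76.3 CPM over 42 cells in humdG.

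*Lama4*, the alpha chain known for vessel walls, was led by 3 classes. In humWT it reached 347 CPM (309.9 to 388) in Schwann and neural crest glia-like cells, 304 CPM (292 to 316) in blood vessel-like cells and 288 CPM (281 to 296) in mesenchyme-like cluster 4. In humdG the same classes had 259 CPM (222 to 301), 261 CPM (244 to 278) and 255 CPM (245 to 266). Neighbours in this order had overlapping intervals, whereas in humWT the interval of the glia-like cells lay above that of mesenchyme-like cluster 4.

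*Lama5*, a main alpha chain of epithelia, separated epithelia from connective tissue. Surface epithelium-like cells had 105 CPM (88.6 to 123) in humWT and 94.1 CPM (73.9 to 118) in humdG, and RPE-like cells had 72.7 CPM (64.9 to 81.2) and 73.5 CPM (63.3 to 84.8). The intervals of these classes overlapped in humdG and did not in humWT. Blood vessel-like cells followed with 39.2 and 38.6 CPM, and myogenic precursor-like cells with 27.6 and 34.1 CPM. Mesenchyme-like cluster 4 had only 2.36 and 1.24 CPM, no more than the 4.93 and 6.30 CPM of red blood cell-like cells. In the surface epithelium-like class 10 cells held 52.0% of the *Lama5* UMIs in humWT and 62.2% in humdG, so that level rested on few cells.

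The beta chains differed in how far they extended. *Lamb1*, the beta chain of most embryonic laminins, was highest in mesenchyme-like cluster 4, at 382 CPM (373 to 392) in humWT and 322 CPM (310.2 to 334) in humdG. Blood vessel-like cells had 267 and 253 CPM, and RPE-like cells 232 CPM (218 to 247) and 210.1 CPM (193 to 229). This chain was therefore present at high counts in mesenchyme, endothelium and pigment epithelium at once. Its highest class was less stable than its presence, since it changed in 2 of 8 alternatives in humWT and 4 of 8 in humdG, where the mesenchyme-like clusters were taken as 1 class. *Lamb2*, the beta chain of the neuromuscular junction and kidney glomerulus, had 86.5 and 72.5 CPM in mesenchyme-like cluster 4 and 54.2 and 83.3 CPM in mesenchyme-like cluster 10 (*Col12a1*, *Postn*). RPE-like cells had 35.8 CPM (30.4 to 41.9) and 25.02 CPM (19.2 to 32.0) of *Lamb2*, and retinal progenitor-like cells 20.7 CPM (17.7 to 24.1) and 17.4 CPM (15.2 to 19.8).

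*Lamc1* encodes the gamma chain shared by most laminin trimers. Its highest class was blood vessel-like, with 245 CPM (234 to 256) in humWT and 244 CPM (228 to 261) in humdG. Schwann and neural crest glia-like cells had 243 CPM in humWT, within the interval of the vessel cells, but 136 CPM in humdG. Mesenchyme-like cluster 4 had 184 and 139.8 CPM. In RPE-like cells *Lamc1* had 91.2 CPM (82.4 to 101) and 61.2 CPM (51.9 to 71.6).

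The nidogens had different highest classes, and by CPM each was low in an epithelium where the other was not. *Nid1* was highest in mesenchyme-like cluster 4, at 719 CPM (707 to 732) in humWT and 532 CPM (517 to 548) in humdG, which was 2.58 and 1.49 times the next class, mesenchyme-like cluster 10. In RPE-like cells *Nid1* had 44.8 CPM (38.7 to 51.6) and 13.5 CPM (9.35 to 18.9), overlapping the 38.1 CPM (30.4 to 47.1) and 14.4 CPM (8.23 to 23.4) of red blood cell-like cells. *Nid2* had its highest level in exactly that class, with 335 CPM (318 to 352; 1449 UMIs) in humWT and 304 CPM (283 to 327; 766 UMIs) in humdG. Surface epithelium-like cells showed the reverse by CPM, with 72.2 and 49.6 CPM of *Nid1* but 4.95 and 8.91 CPM of *Nid2*. These *Nid2* levels came from 7 UMIs in each library. Here 10 cells held 58.8% of the *Nid1* UMIs in humWT and 84.6% in humdG, so that level rested on few cells. With every cell thinned to 1000 UMIs, a *Nid1* UMI was left in 10.9% of these cells in humWT and 1.71% in humdG. The red blood cell-like shares were 5.32% and 1.67%, with overlapping intervals in both libraries. Mesenchyme-like cluster 4 was above the red blood cell-like level for *Nid2* as well, with 99.8 CPM (95.2 to 105) and 88.8 CPM (82.7 to 95.2). Blood vessel-like cells had both genes, with 213 CPM of *Nid1* in each library and 223 CPM (213 to 234) and 267 CPM (250.4 to 285) of *Nid2*. The *Nid2* level of RPE-like cells was 1.498 times that of blood vessel-like cells in humWT and 1.14 times in humdG, where their intervals overlapped.

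**Figure D2:**
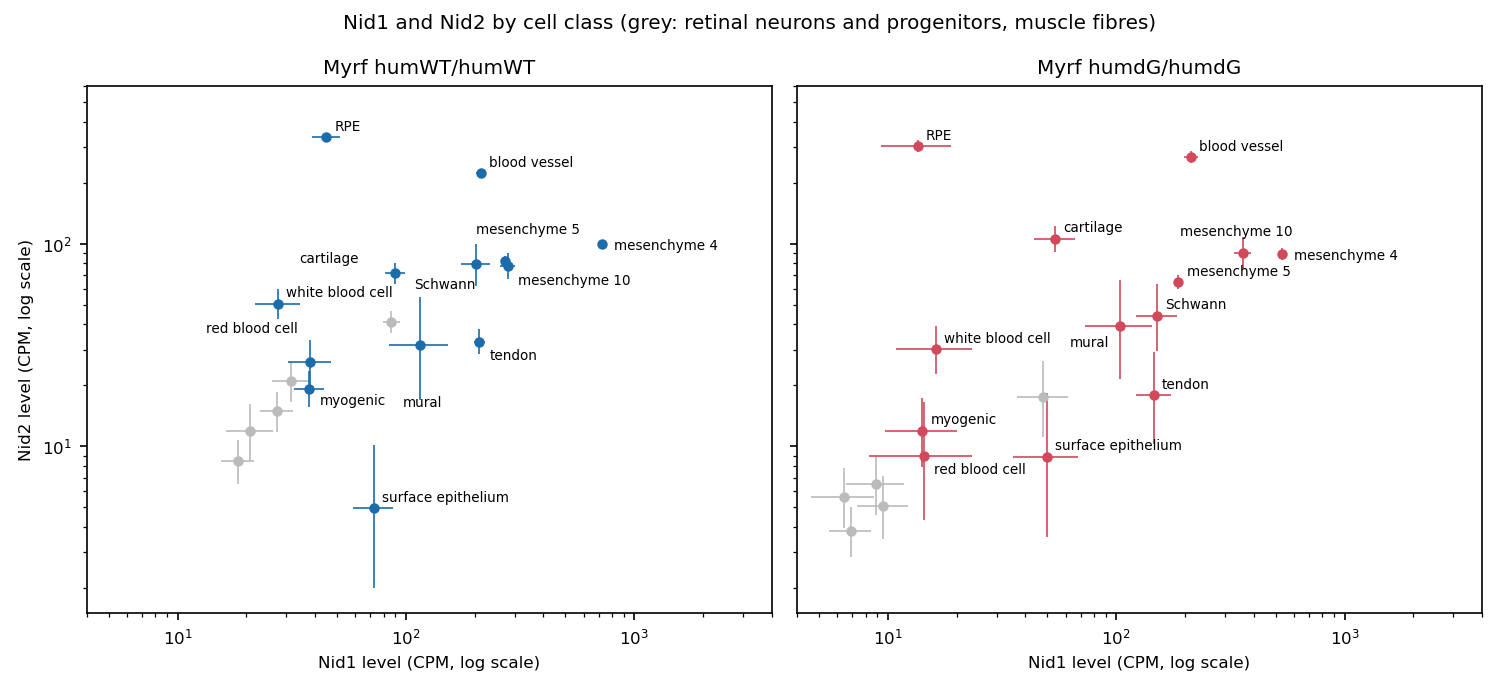
Level of *Nid1* (horizontal, CPM, log scale) against *Nid2* (vertical, CPM, log scale) in each named class, with 95% counting intervals as bars, for both libraries. RPE-like cells stand at the upper left (335 and 304 CPM of *Nid2*), surface epithelium-like cells at the bottom (4.95 and 8.91 CPM of *Nid2*) and mesenchyme-like cluster 4 at the right (719 and 532 CPM of *Nid1*). Grey points are retinal neuron, progenitor and muscle fibre classes.

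A *Nid2* UMI was found in 51.6% of RPE-like cells in humWT and 43.4% in humdG, and in 10.3% and 4.05% of the red blood cell-like cells. The RPE-like cells had median depths of 3902.5 and 2436 UMIs. With every cell thinned to 1000 UMIs, the shares of RPE-like cells were 19.9% (16.6 to 23.4) and 16.0% (12.6 to 19.8). In the thinned humWT red blood cell-like cells 3.89% had a *Nid2* UMI. For *Lamb1* the thinned shares of RPE-like cells were 14.4% and 14.1%, and those of the red blood cell-like class 6.34% and 2.08%. Thinning left out no RPE-like cell in humWT and 3 in humdG, and 6 and 7 red blood cell-like cells.

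*Hspg2*, perlecan, was highest in blood vessel-like cells, at 453 CPM (438 to 468) in humWT and 522 CPM (498 to 547) in humdG. These levels were 2.24 and 3.01 times that of mesenchyme-like cluster 4, the next class, with 202 and 174 CPM. RPE-like cells had 72.5 CPM (64.7 to 81.0) and 37.7 CPM (30.5 to 46.1). A single blood vessel-like cell held 4.68% of the class's *Hspg2* UMIs in humWT and 8.17% in humdG, and 10 cells held 22.9% and 43.4%.

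Red blood cell-like cells, which are not known to make matrix, were taken as a floor for these genes, and the floor differed between the libraries. Red blood cell-like cells had 63.2 CPM of *Lama2* in humWT and 10.8 CPM in humdG, 27.8 and 5.40 CPM of *Lama4*, 37.2 and 15.3 CPM of *Lamb1*, 26.0 and 9.003 CPM of *Nid2*, and 37.7 and 11.7 CPM of *Hspg2*. *Lama1*, *Lama5* and *Lamb2* were at no more than 8.10 CPM in these cells of either library. The 7 red blood cell markers summed to 474386 CPM of this class in humWT and 571393 CPM in humdG. A floor by CPM is lowered by that share, and more so in humdG. A gene was counted as above this floor in a class when the lower bounds of both its CPM and its UMIs per cell lay above the upper bounds of red blood cell-like cells, in both libraries. By this rule 9 genes were above the floor in mesenchyme-like cluster 5, 8 in blood vessel-like cells and 8 in mesenchyme-like cluster 4. RPE-like cells were above it for 6 genes, *Lama5*, *Lamb1*, *Lamb2*, *Lamc1*, *Nid2* and *Hspg2*, and so for 1 alpha, both beta and the gamma chain. Myogenic precursor-like cells were above it for 6 genes, *Lama2* and *Lama4* among them. In retinal progenitor-like cells only *Lama1* and *Lamb2* passed, in amacrine and horizontal-like cells only *Lama1*, in white blood cell-like cells only *Nid2*, and in neurogenic-like and photoreceptor precursor-like cells none of the 10.

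**Figure D3:**
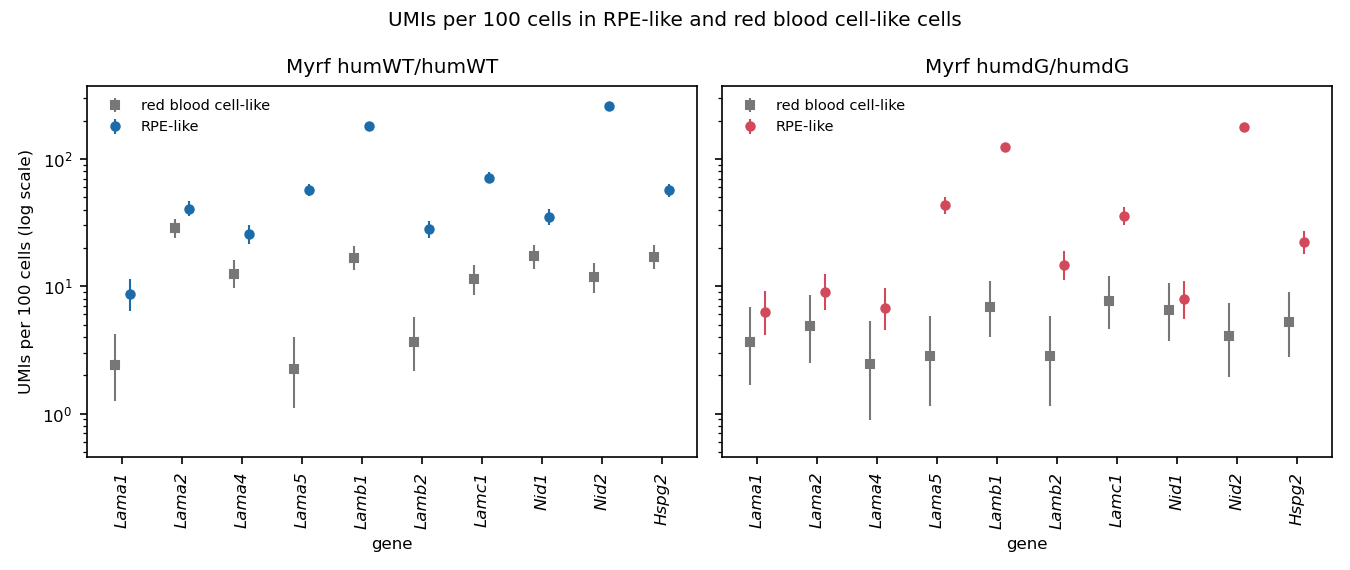
UMIs of each gene per 100 cells (vertical, log scale) in RPE-like cells (circles) and red blood cell-like cells (squares), with 95% counting intervals as bars, for both libraries. *Nid2* and *Lamb1* have the highest circles (262 and 181 UMIs per 100 RPE-like cells in humWT), *Lama5* and *Nid2* stand farthest above their squares in humWT (56.9 against 2.22 for *Lama5*), and *Nid1* overlaps them in humdG (7.93 against 6.48).

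The question put by the design is whether these genes differ between the humWT and humdG alleles, first of all in the RPE, where *Myrf* is expressed. The RPE-like class joined 2 clusters, in which 7 and 6 of 8 RPE markers were raised, and which held 480 and 74 of the humWT cells but 414 and 15 of the humdG cells. In RPE-like cells (554 humWT and 429 humdG cells), *Nid2* and *Lamb1*, the members at the highest counts, and *Lama5* differed little between the libraries. The log2 ratio of humdG to humWT was -0.14 (-0.27 to -0.01) for *Nid2*, -0.14 (-0.30 to 0.01) for *Lamb1* and 0.01 (-0.26 to 0.28) for *Lama5*. *Lamb2* and *Lamc1* were lower in humdG, with ratios of -0.52 (-0.96 to -0.09) and -0.58 (-0.85 to -0.30), both short of 1.5-fold, a bound that *Lamc1* passed when clusters were drawn at a resolution of 1.0 (-0.62). *Hspg2* was lower by 0.94 on the log2 scale, a humdG level of 0.52 times that of humWT (0.409 to 0.657), from 314 and 95 UMIs. Across 11 alternatives the *Hspg2* ratio ranged from -1.06 to -0.82, and in the larger of the 2 clusters alone it was -1.01. Among these alternatives, the setting without a minimum of UMIs cannot change the ratio.

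At least 1.5-fold lower in humdG RPE-like cells were 4 of 10 genes, *Lama2*, *Lama4*, *Nid1* and *Hspg2*, and 0 of 10 were higher by as much. Among all 12656 genes with at least 20 UMIs, 15.3% were lower by this rule and 7.34% higher. The median log2 ratio was -0.55 for the 10 genes and -0.07 for all genes tested. *Lama2* had 52.0 CPM in humWT and 15.5 CPM in humdG (log2 ratio -1.75, -2.28 to -1.25), *Lama4* had 32.8 and 11.5 CPM (-1.51), and *Nid1* had 44.8 and 13.5 CPM (-1.73). These 3 genes were not above the red blood cell-like floor in RPE-like cells. In humWT they fell short of the rule by CPM only, as their UMIs per cell lay above the floor with separate intervals. In humdG they fell short by both measures. The floor itself was lower in humdG, with log2 ratios of -2.55 for *Lama2*, -2.36 for *Lama4* and -1.40 for *Nid1* in red blood cell-like cells. What part the floor had in the ratios of RPE-like cells was not tested, apart from subtracting it. A subtraction by CPM was not made, and by CPM *Lama2* in RPE-like cells lay below the floor in humWT and above it in humdG. The floor was subtracted as UMIs per cell only, with the class totals kept unchanged. This subtraction left *Lama2* at -1.11, *Lama4* at -1.18, *Nid1* at -3.21 and *Hspg2* at -0.82. After that subtraction 7 of 10 genes were at least 1.5-fold lower, *Lamc1* (-0.68), *Lamb2* (-0.63) and *Lama1* (-0.82) being added, against 22.2% of all genes tested in the same way. The subtracted ratios have no intervals. Before subtraction, humdG RPE-like cells had 27 UMIs of *Lama1* and a *Nid1* UMI in 30 cells, so the subtracted ratios of these genes rest on few UMIs. Markers of mesenchyme and blood vessels were also lower in humdG, while those of red blood cells were not. In RPE-like cells the 10 mesenchyme markers summed to 2635 CPM in humWT and 1219 CPM in humdG, with 10 of 10 lower, beside 2860 and 937 CPM in the red blood cell-like class. The 9 blood vessel markers summed to 142 and 89.0 CPM in RPE-like cells, with 8 of 9 lower, and no marker of either list was at 0. The 7 red blood cell markers went the other way there, at 5696 CPM in humWT and 7419 CPM in humdG, with 1 of 7 lower. The 8 RPE markers summed to 17749 and 17217 CPM, with 4 of 8 lower. The part of these markers, and of the depth of RPE-like cells, in the ratios was not tested.

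**Figure D4:**
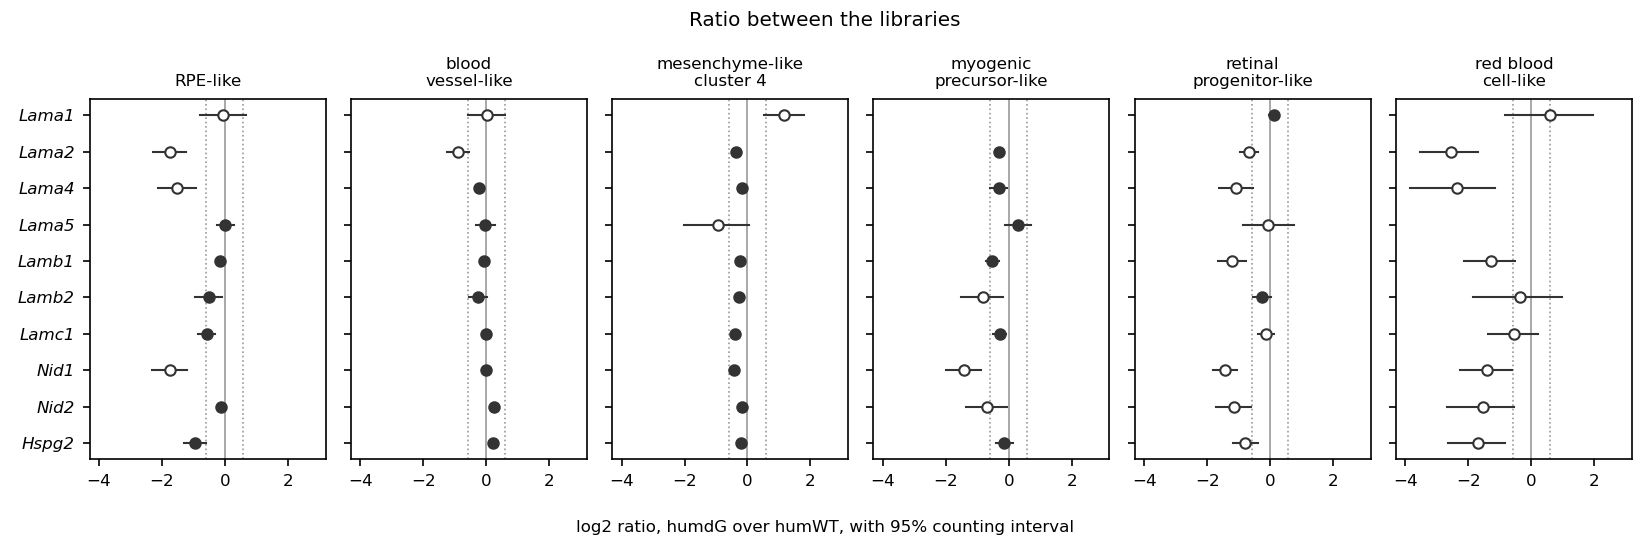
Log2 ratio of humdG to humWT for each gene (rows) in 6 classes (panels), with 95% counting intervals. Filled points are genes above the red blood cell-like level in that class in both libraries, open points are the others, genes under 20 UMIs are not drawn, and dotted lines mark a 1.5-fold difference. The filled points lie between the dotted lines except *Hspg2* in RPE-like cells (-0.94).

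In blood vessel-like cells (651 and 380 cells) 1 of 10 genes was at least 1.5-fold lower in humdG and 0 were higher, where 10.5% and 6.45% of all genes tested were. That gene was *Lama2*, with 46.7 and 25.1 CPM (-0.90, -1.25 to -0.55), and it was not above the floor in this class. A single humdG cell held 36.0% of these UMIs, and the ratio ranged from -1.40 without the highest cell to -0.27 after subtraction of the floor, short of 1.5-fold. The mesenchyme markers in blood vessel-like cells summed to 2271 CPM in humWT and 736 CPM in humdG, with 10 of 10 lower, and their part in the ratio was not tested. The 7 red blood cell markers summed to 4675 CPM in humWT and 5462 CPM in humdG in this class, with 3 of 7 lower. The members with the highest counts stayed within 1.5-fold. *Hspg2* was slightly higher in humdG (0.21, 0.12 to 0.29), as was *Nid2* (0.26, 0.14 to 0.37), and *Lama4* slightly lower (-0.22, -0.33 to -0.11). *Lamc1* (-0.01) and *Nid1* (0.00) did not separate from 0.

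In mesenchyme-like cluster 4 (1119 and 507 cells) 8 of 10 genes had log2 ratios between -0.43 and -0.17. *Nid1* was at -0.43 (-0.48 to -0.39), *Lamc1* at -0.40 (-0.49 to -0.30), *Lama2* at -0.35 (-0.41 to -0.29), and *Nid2* at -0.17 (-0.29 to -0.05). Only *Lama5* was at least 1.5-fold lower (42 and 11 UMIs) and only *Lama1* higher (42 and 47 UMIs), 1 gene in each direction against 7.85% and 4.81% of all genes tested. Neither was above the floor in this cluster.

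Myogenic precursor-like cells (263 and 122 cells) had 9 genes with enough UMIs, of which 3 were at least 1.5-fold lower and 0 higher, against 8.94% and 6.66% of all genes tested. The 3 were *Lamb2* (-0.82), *Nid1* (-1.41) and *Nid2* (-0.69), and none was above the floor in both libraries. *Lama2*, the muscle chain, had a ratio of -0.30 (-0.43 to -0.17) from 1733 and 660 UMIs.

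Retinal progenitor-like cells (649 and 1119 cells) had 6 of 10 genes at least 1.5-fold lower and 0 higher, against 8.75% and 5.24% of all genes tested. These 6, *Lama2*, *Lama4*, *Lamb1*, *Nid1*, *Nid2* and *Hspg2*, were not above the floor in this class, and the same 6 were at least 1.5-fold lower in red blood cell-like cells. *Lama1*, the chain these progenitors carry, was at 0.12 (-0.05 to 0.29), and *Lamb2* at -0.25 (-0.54 to 0.05). The red blood cell-like class (495 and 247 cells) had 6 of 9 genes lower and 1 higher, against 26.8% and 14.3% of all genes tested, and the higher 1 was *Lama1*, from 12 and 9 UMIs.

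Over these classes without the red blood cell-like cells, 30 pairs of a gene and a class were above the floor in both libraries, and 1 of them, *Hspg2* in RPE-like cells, differed at least 1.5-fold. Of the 19 pairs that had enough UMIs but were not above the floor, 14 were lower and 1 was higher. Over all genes in these classes, 3.06% of pairs above the floor in both libraries were lower and 1.31% higher, and of the pairs not above it 18.6% and 11.6%. In RPE-like cells alone, 8.87% of the genes above the floor in both libraries were lower and 2.35% higher, beside 1 of 6 members lower. A gene that falls in humdG can leave the first group by its own change, so these counts are a description. With the floor read in humWT alone, 31 pairs were above it, of which 2 were lower and 0 higher, against 5.81% and 1.28% over all genes. In RPE-like cells alone these shares of all genes were 13.1% and 2.12%. Other named classes were left out of these counts. In mesenchyme-like cluster 5, with 9 genes above the floor, 4 of 10 were at least 1.5-fold lower and 0 higher. In Schwann and neural crest glia-like cells, with 8 above it, 5 of 9 were lower and 1 higher. Mesenchyme-like cluster 10, with 8 above it, had 0 of 10 lower and 1 higher. Shares of all genes were not counted there.

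Summed over all kept cells, *Lama2* had 223 CPM in humWT and 103 CPM in humdG (log2 ratio -1.11), while *Lama1* had 18.8 and 30.7 CPM (0.71). The shares of cells and of UMIs moved in the same directions. Mesenchyme-like cluster 5, the class highest in *Lama2*, made up 5.73% of humWT and 3.12% of humdG cells, and the retinal progenitor-like class 4.01% and 6.16%. Of all UMIs, by which such a sum weights the classes, cluster 5 held 12.9% and 9.65%, and the retinal progenitor-like class 6.59% and 12.4%. In such a sum alone, fewer cells of a class and less RNA per cell cannot be told apart. Within cluster 5 the *Lama2* level was itself lower in humdG (642 and 442 CPM), and the median depths were 16325 and 17984 UMIs. Within the retinal progenitor-like class *Lama1* was at 56.7 and 61.6 CPM, with median depths of 12057 and 11581 UMIs. The part of class sizes and of these levels in the sums was not tested.

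Other laminin chains were few in RPE-like cells, where none of *Lama3*, *Lamb3* and *Lamc3* reached 20 UMIs. *Lama3* and *Lamb3*, an alpha and a beta chain known for stratified epithelia, were highest in surface epithelium-like cells, at 80.0 and 87.8 CPM and at 40.3 and 36.9 CPM. *Lamc3* was highest in mesenchyme-like cluster 5, at 23.3 and 19.1 CPM.

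Of 18 partner genes of the basement membrane, 4 were at least 1.5-fold lower in humdG RPE-like cells and 0 higher, beside the 15.3% and 7.34% of all genes tested. These were *Col15a1*, *Smoc1*, *Smoc2* and *Hmcn1*, and the list's median log2 ratio was -0.15. *Col15a1*, *Smoc2* and *Hmcn1* were also lower in the red blood cell-like class, where 11 of 13 partners with enough UMIs were, against 26.8% of all genes tested there. The collagen IV chains of mature basement membranes, *Col4a3* (357 and 452 CPM) and *Col4a4* (495 and 526 CPM), had their highest class in RPE-like cells, as did nephronectin, *Npnt* (63.5 and 64.3 CPM). *Col4a1*, the collagen IV chain of nearly all basement membranes, was highest in blood vessel-like cells, at 1976 and 1878 CPM. Among 6 receptors with enough UMIs in RPE-like cells, 1 was lower, the integrin chain *Itga3*, with 73.0 and 38.5 CPM, a share near that of all genes. The laminin receptor *Bcam*, which binds the *Lama5* chain, had 48.0 and 67.9 CPM there (0.50, 0.20 to 0.80).

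Likeness of pattern was measured as Pearson's r of log2(CPM + 10) over 36 profiles, 18 classes in 2 libraries, among 15890 genes. These profiles share libraries and free RNA, so r is a description. *Lamb1* was most like *Lamc1* (0.92), and *Lamc1* was most like *Cavin3* (0.92), *Lamb1* (0.92) and *Col4a1* (0.92). *Lama5* was most like *Bcam* (0.91), *Ocln* (0.84) and *Krt8* (0.83). *Lama4* was most like *Atp2b4* (0.91) and then *Hspg2* (0.90). *Nid1* was most like *Fbln2* (0.92), *Cxcl12* (0.92) and *H19* (0.91), and *Nid2* most like *Bmp2* (0.86), *Sorbs3* (0.86) and *B4galt4* (0.84). *Lama1* was most like *Cyp26a1* (0.81), *Ano1* (0.80) and *Pawr* (0.75), and within the group its r was below 0 with each of the other 9 genes, from -0.41 with *Lama4* to a value close to 0 with *Lama5*. *Lama2* was most like *Flnc* (0.89), and *Lamb2* most like *Calu* (0.88).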

How the data were processed

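The authors deposited raw UMI counts per gene and barcode for 1 library per genotype, and the submitters' processing notes name Cell Ranger 7.1.0, Seurat 4.1.1 and the build mm10. Intron counting was not given in the sources used here. A barcode was kept as a cell when it had over 500 genes and less than 15% of its UMIs from mitochondrial genes. Scrublet (scanpy 1.11.5) called 0 doublets, so the 5% with the highest scores were removed. Cells were integrated by canonical correlation (Seurat 5.3.0, 20 dimensions). This used 1998 genes, the 2000 variable genes less those of the 10 genes found among them. Clusters were drawn at a resolution of 0.5 from the first 20 of 30 principal components. A cluster took a class name when at least 3 markers were raised 2-fold, after adding 10 CPM, in 10% of its cells, with 1 among its 20 leading genes. Deposited counts were summed by class and library and scaled to CPM, with exact Poisson intervals, exact conditional binomial intervals for ratios and exact Clopper-Pearson intervals for shares (scipy 1.17.1). A call required a 1.5-fold ratio and 20 UMIs over both libraries. For levels and ratios, the UMIs of the gene in the class set the width of the interval. PCR copies are removed by UMIs, but intervals cover counting error only. The interval code was tested on simulated data.

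The members and lists were chosen with earlier results of these data known. Chosen after the levels were seen were leaving a cluster with a tied name unnamed, keeping the mesenchyme-like clusters apart because 2 of 3 had more leading markers of another class than of their own, the 6 classes compared, the floor rule and its split of all genes, the motifs and the ratio in the larger RPE-like cluster alone. The genes named were the 10 members, the genes of the context lists, except an item that is not reported here, and the 3 genes most like each member, among genes with at least 200 UMIs. Alternatives are given in the closing section. Figures were drawn with matplotlib 3.10.9.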

Additional observations from a re-analysis of the deposited data

How the results depend on the processing

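No paired analysis was possible because each genotype has 1 library and no replicate number, and for the same reason no replicate could be left out. Of the log2 ratios in 6 classes under the alternatives, 509 stayed within the counting interval of the main ratio, 15 moved beyond it and 2 reversed. The setting without a minimum of UMIs cannot change a ratio, so its ratios are among the 509 by construction. A ratio that stayed within the interval could still change its sign or its 1.5-fold call. Both reversals came from subtracting the red blood cell-like level in retinal progenitor-like cells, where *Lama2* became 3.64 and *Hspg2* 2.47, and few UMIs were left by construction. The same subtraction gave 7 of 10 genes lower in RPE-like cells, against 22.2% of all genes. In blood vessel-like cells it gave 0 of 10 lower, against 12.7%. In mesenchyme-like cluster 4, 0 of 9 were lower and 1 of 9 higher, against 8.04% and 5.26%. In myogenic precursor-like cells 2 of 9 were lower and 0 higher, against 8.86% and 7.62%. In retinal progenitor-like cells 1 of 7 was lower and 3 of 7 higher, against 6.56% and 7.47%. At a resolution of 1.0, 5 genes were lower in RPE-like cells, *Lamc1* being added. The share of all genes was counted only in the main setting and after subtraction. Counts of genes under the other alternatives therefore have no such share beside them. The subtraction has no value in red blood cell-like cells, which define the level subtracted. Without a minimum of UMIs, 1 gene was higher in myogenic precursor-like cells. The count of higher genes in red blood cell-like cells was 0 with more than 200 genes per cell and with the highest cell left out. With mesenchyme-like clusters taken as 1 class, the highest class stayed the same in 8 of 8 alternatives in both libraries for *Lama2*, *Lama5*, *Lamb2*, *Nid2* and *Hspg2*. Reclustering gave 32 clusters at a resolution of 1.0, 21 without integration, 24 without doublet removal and 25 with more than 200 genes, so mesenchyme-like cluster 4 has no value there, and no myogenic precursor-like class formed at a resolution of 1.0. The larger RPE-like cluster alone, an alternative added after the data were seen, gave 4 genes lower. Of the levels 111 stayed and 17 moved beyond their counting interval, and 20 shares moved on thinning. Surface epithelium-like and glia-like classes are limited by few cells.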

Other observations

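Unnamed clusters carried some of the same genes. A small pigmented cluster led by *Dct*, *Tyrp1* and *Cck*, with equal numbers of RPE and melanocyte markers (103 humWT and 62 humdG cells), had 16.3 CPM of *Nid2* in humWT and 10.8 CPM in humdG, and 3.38 and 7.53 CPM of *Lama5*. Its *Lamb1* levels were 32.7 and 38.7 CPM. RPE-like cells stood well above it for all 3 genes in both libraries, with intervals that did not overlap. Its *Lama4* (84.5 and 52.7 CPM) was higher than in RPE-like cells. Its *Nid1* (62.5 and 49.5 CPM) was higher in humdG, while the humWT intervals overlapped at their ends.

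The unnamed cluster with 5 raised retinal progenitor markers but none among its leading genes had 71.2 CPM (65.3 to 77.4) of *Lama1* in humWT and 66.5 CPM (62.1 to 71.0) in humdG. This was above the named progenitors in humWT, where the intervals were separate, and overlapped them in humdG. It held 23.9% and 26.3% of all *Lama1* UMIs. Another unnamed cluster, led by *Nrxn3* and *Ntng2*, had 50.7 and 87.3 CPM of *Lama1* beside 287 and 99.5 CPM of *Lama2*.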
